A study of Mus musculus with 6 samples.

Results

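The NF-κB subunits and inhibitors described here are 10 genes, found by symbol among the 34245 rows of an expression table of 3 mouse lymphomas. They comprise 5 subunits (Rela, Rel, Relb, Nfkb1 and Nfkb2), 3 inhibitors of the IκB family (Nfkbia, Nfkbib and Nfkbie), the atypical IκB protein Bcl3, and Tnfaip3, which encodes the ubiquitin-editing enzyme A20. All 10 were found. They were set beside all other genes of the table and beside 66 further genes of the pathway.

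NF-κB is a family of dimeric transcription factors. In resting cells IκB proteins hold most dimers in the cytoplasm, and signals from the T-cell receptor, cytokine receptors or TNF-family receptors activate IκB kinase, which marks IκB for degradation and frees the dimer to enter the nucleus. In the canonical branch the dimers are mostly built from RelA, c-Rel and the product of Nfkb1, and in the noncanonical branch from RelB and the processed product of Nfkb2. Several inhibitors, A20 among them, are themselves NF-κB target genes, so that the pathway limits its own activity. In T-cells it acts in activation and survival. Transcript levels do not show where the proteins are in the cell or whether the dimers are active.

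The study asked what follows when a mouse lacks 1 copy of Dnmt3b, a gene for a de novo DNA methyltransferase. RNA-seq was done on 3 independent peripheral T-cell lymphomas (PTCL) of Dnmt3b+/- mice, of strain FVB in the labels and FVB/N in the methods, named tumors 1, 2 and 3. The samples came from lymph nodes, taken once the animals were terminally sick. No treatment is named, and ages and any sort for tumor cells are not given in the sources used here. The knockout allele is carried by all cells of the animal, not by T-cells alone. Since the table holds this single group, no test between groups was possible, no p-value is given, and each value is a description of 3 tumors. Dnmt3b itself had 0.975, 1.55 and 1.25 FPKM in tumors 1, 2 and 3, values that sum all exons and hold no information on the allele.

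FPKM, the unit of the table, are fragments on a gene per kilobase of its exons and scaled to the reads of the library, so that levels can be compared between genes. The depth behind them, recovered from the values, was 30726570, 18969988 and 20770928 reads in tumors 1, 2 and 3. Intervals in brackets are exact 95% intervals on the recovered reads and cover counting error only.

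The T-cell label was checked against 7 markers of T-cells and the CD8 lineage, which summed to 1133, 868 and 1242 FPKM in tumors 1, 2 and 3. Cd8b1 was the most abundant of them by its mean over tumors, the measure used for the leading gene of each list, with 435, 166 and 443 FPKM, though Lck was above it in tumor 2 with 208 FPKM. Cd3e, a chain of the T-cell receptor complex, had 56.4, 78.1 and 65.3 FPKM. The markers of T-cells were thus present in every tumor. Cd4 had 28.4, 4.28 and 8.22 FPKM in tumors 1, 2 and 3.

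All 10 genes were expressed above 1 FPKM in every tumor, as were 28.4% of the 34197 gene symbols of the table. By their means over 3 tumors they were ordered as Nfkbia, Rela, Nfkb2, Nfkbie, Nfkb1, Nfkbib, Bcl3, Relb, Rel and Tnfaip3. Of the 9 neighbouring pairs in this order, 2 did not overlap between tumors: the lowest Nfkbia value, 26.2 FPKM, was above the highest Rela value, 24.5 FPKM, and the lowest Rela value, 19.1 FPKM, was above the highest Nfkb2 value, 14.8 FPKM. With libraries rescaled to a common sum Nfkbia and Rela overlapped, and 1 pair, Rela and Nfkb2, did not. From Nfkb2 down to Tnfaip3 neighbours could not be told apart beyond the spread between tumors. In each tumor taken alone, Nfkbia ranked first and Rela came next.

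**Figure D1:**
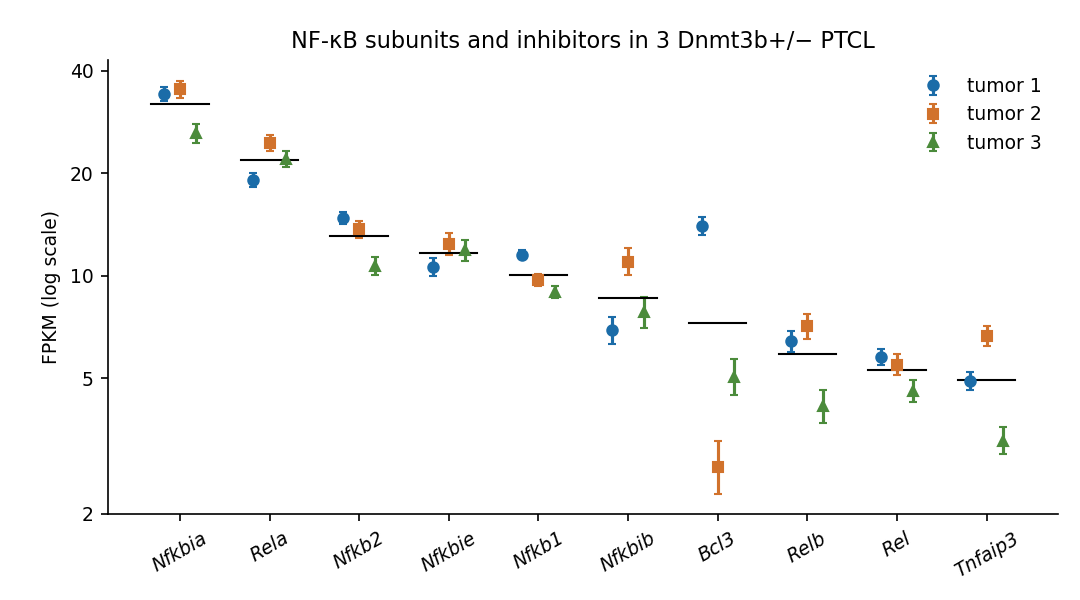
FPKM (log scale) of the 10 genes in tumors 1, 2 and 3, ordered by mean. Points are single tumors, vertical bars the 95% counting intervals and horizontal lines the means; Nfkbia and Rela lie above the other genes in every tumor, and the points of Bcl3 are the most spread, from 2.75 to 14.0 FPKM.

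Among the subunits, Rela was the most abundant. Rela (ENSMUSG00000024927, chr19:5637483-5648130 of mm10, plus strand) encodes the transactivating partner of the classical dimer. It had 19.1, 24.5 and 22.0 FPKM in tumors 1, 2 and 3 and averaged 21.9 ± 2.72 (SD, n = 3). Tumor 1 was the lowest, though tumor 3 was with libraries rescaled to a common sum, and the highest tumor had 1.29 times the FPKM of the lowest [1.19 to 1.38]. In these bulk samples fewer cells that express a gene and less of its RNA per cell cannot be told apart.

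Rel (ENSMUSG00000020275, chr11:23736847-23770970, minus strand) encodes c-Rel, the subunit best known from activated lymphocytes. Its FPKM was 5.79, 5.49 and 4.60 in tumors 1, 2 and 3 and averaged 5.29 ± 0.617 (SD, n = 3). Rel was thus expressed well below Rela in each tumor. The highest tumor had 1.26 times the FPKM of the lowest [1.15 to 1.38].

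Nfkb1 (ENSMUSG00000028163, chr3:135584655-135691547, minus strand) encodes a precursor protein that is cut to a DNA-binding subunit without a transactivation domain. It had 11.5, 9.70 and 8.98 FPKM and averaged 10.1 ± 1.32 (SD, n = 3). With 4274, 2220 and 2249 reads it had the most reads of the 10 genes, and its ratio of highest to lowest tumor was 1.28 [1.22 to 1.35]. Tumors 2 and 3 differed little, by a ratio of 1.08.

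The noncanonical subunits were Relb and Nfkb2. Relb (ENSMUSG00000002983, chr7:19606217-19629438, minus strand) had 6.43, 7.11 and 4.14 FPKM in tumors 1, 2 and 3 and averaged 5.89 ± 1.56 (SD, n = 3). Tumor 3 stood apart as the lowest, and without it the ratio of highest to lowest tumor fell from 1.72 [1.49 to 1.98] to 1.11. Nfkb2 (ENSMUSG00000025225, chr19:46304737-46312090, plus strand) encodes the precursor that is processed in the noncanonical branch. It had 14.8, 13.7 and 10.7 FPKM and averaged 13.0 ± 2.13 (SD, n = 3). Tumor 3 was again the lowest, and the ratio of highest to lowest tumor was 1.38 [1.27 to 1.51]. Nfkb2 shares 299 exon bases with Psd on the opposite strand in GENCODE M21 but 4 bases by the coordinates of the table. Psd had 175, 114 and 81 reads in the 3 tumors against 1493, 855 and 729 for Nfkb2. The use of strand in the counting is not given in the sources used here, so reads of such opposed genes cannot be told apart where their exons overlap.

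The 250 bases before the RefSeq start were read from the RefSeq promoter table (GRCm38.p6, the C57BL/6J reference and not the FVB genome of these mice), which held 8 of the 10 genes. Nfkb1 and Relb were not among them. The windows were searched on both strands for the κB motif GGGNNNTTCC, whose reverse complement is GGAANNNCCC, and 4.65% of the 32851 windows in the table held a match. For 5 of the 8 genes the window at the first start held at least 1 match, namely Nfkb2, Rel, Nfkbia, Nfkbie and Tnfaip3. The windows of Rela, Nfkbib and Bcl3 held none. The RefSeq start can differ from the start of the gene given here. Only the windows of Nfkb2, Nfkbia and Nfkbie lay wholly outside the gene, and in GENCODE M21, where Nfkb2 starts 417 bases before its RefSeq start, that of Nfkb2 lay inside an exon. The windows of Rel, Bcl3, Rela and Tnfaip3 had 1, 15, 58 and 247 of their bases inside the gene. That of Nfkbib had all 250, so the bases before the gene were not searched. A match is a stretch of letters and was not tested for binding. The window of Nfkb2 (chr19:46304487-46304736, plus strand) held 2 matches, 38 to 29 and 11 to 2 bases before the RefSeq start, and no other of these first-start windows held more than 1.

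The inhibitors of the IκB family were led by Nfkbia, which encodes IκBα, the inhibitor that is degraded and remade most rapidly. Nfkbia (ENSMUSG00000021025, chr12:55489410-55492647, minus strand) had 34.2, 35.2 and 26.2 FPKM in tumors 1, 2 and 3 and averaged 31.9 ± 4.96 (SD, n = 3). Tumors 1 and 2 were nearly equal and tumor 3 was lower, with a ratio of highest to lowest of 1.35 [1.23 to 1.47]. In tumor 1 its FPKM exceeded that of 97.4% of the genes. Its window (chr12:55492648-55492897, minus strand) held 1 match 29 to 20 bases before the start, in capitals, and is shown, 5′ to 3′ on the strand of the gene, because Nfkbia is the most abundant of the 10 genes.
Nfkbia: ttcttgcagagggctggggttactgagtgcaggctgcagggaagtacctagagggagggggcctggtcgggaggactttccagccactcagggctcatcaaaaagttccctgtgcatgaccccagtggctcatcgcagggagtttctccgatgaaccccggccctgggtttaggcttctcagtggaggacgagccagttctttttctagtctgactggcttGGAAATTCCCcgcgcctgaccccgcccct

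Nfkbib (ENSMUSG00000030595, chr7:28758251-28767512, minus strand) encodes IκBβ, a slower-responding inhibitor. It had 6.92, 11.0 and 7.81 FPKM in tumors 1, 2 and 3 and averaged 8.58 ± 2.15 (SD, n = 3). Here tumor 2 stood above the others, with a ratio of highest to lowest of 1.59 [1.39 to 1.82] that was 1.13 without tumor 2. Nfkbib shares 314 exon bases with Ccer2 and 42 with Sirt2, both on the opposite strand. Ccer2 had at most 1 read in a tumor, and Sirt2 had 925, 667 and 588 reads over all its exons.

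Nfkbie (ENSMUSG00000023947, chr17:45555716-45563169, plus strand) encodes IκBε. In the deposited values it varied least of the 10 genes, with 10.6, 12.4 and 11.9 FPKM, a mean level of 11.6 ± 0.909 (SD, n = 3) and a ratio of highest to lowest tumor of 1.17 [1.05 to 1.30]. With median-of-ratios factors, which bring the typical gene to the same level in each library, its ratio was 1.35 and Nfkb1 varied least, with 1.06. The window of Nfkbie held 1 match, 106 to 97 bases before the RefSeq start.

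Subunits and inhibitors were close to each other in summed level. The 5 subunits summed to 57.6, 60.5 and 50.4 FPKM in tumors 1, 2 and 3, and the 3 inhibitors to 51.8, 58.6 and 45.8 FPKM. The inhibitors thus had 0.899, 0.968 and 0.909 times the summed FPKM of the subunits, with a mean ratio of 0.925 ± 0.0375 (SD, n = 3). This ratio is taken within a library, so that the scaling of the libraries does not enter it. It depended on how a group was summarised, since the ratio of the group medians averaged 1.17.

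Within the groups the shares differed between tumors. Nfkbia made up 66.1%, 60.1% and 57.1% of the summed inhibitor FPKM in tumors 1, 2 and 3. Rela made up 33.1%, 40.5% and 43.7% of the summed subunit FPKM. The level of Nfkbia divided by that of Rela was 1.80, 1.44 and 1.19 in tumors 1, 2 and 3, so that the inhibitor was above this subunit in each tumor by a margin that varied. The noncanonical pair Relb and Nfkb2 had 0.583, 0.524 and 0.416 times the summed FPKM of Rela, Nfkb1 and Rel. Tumor 3 was the lowest in this ratio, as it was for Relb alone.

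**Figure D2:**
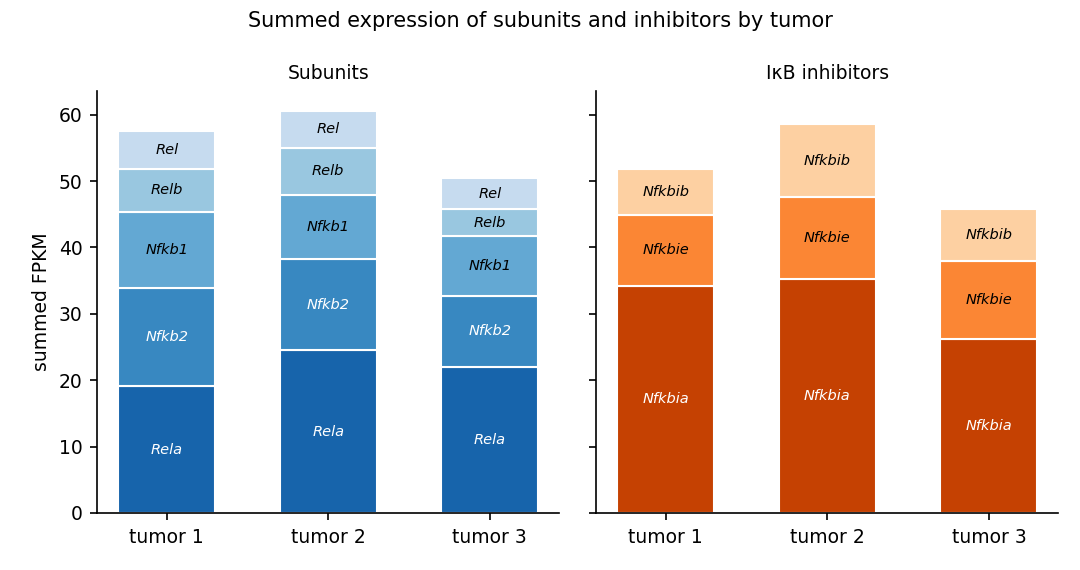
Summed FPKM of the 5 subunits (left) and the 3 IκB inhibitors (right) in tumors 1, 2 and 3, with each segment a gene. Bars start at 0; Nfkbia and Rela are the largest segments of their groups in each tumor, and both groups sum to between 45.8 and 60.5 FPKM.

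Bcl3 was the gene of the 10 that differed most between tumors. It encodes an atypical IκB protein that acts in the nucleus, where it binds dimers of the Nfkb1 and Nfkb2 products and can serve as a coactivator. Bcl3 (ENSMUSG00000053175, chr7:19808462-19822770, minus strand) had 14.0, 2.75 and 5.06 FPKM in tumors 1, 2 and 3 and averaged 7.27 ± 5.95 (SD, n = 3). Tumor 1 was high and tumors 2 and 3 were low, on 1066, 129 and 260 reads. The ratio of highest to lowest tumor was 5.10 [4.25 to 6.17], and it was 1.84 without tumor 1 and 2.77 without tumor 2. Among the 10 genes Bcl3 was the one with ranks 4, 10 and 7 in tumors 1, 2 and 3. Without tumor 1 its mean was 3.90 FPKM.

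Bcl3 shares 161 exon bases with Gm16175 on the opposite strand, which had 47, 6 and 5 reads in tumors 1, 2 and 3. The window before the RefSeq start of Bcl3 (chr7:19822756-19823005, minus strand) held no κB match and 19 CpG dinucleotides, the sites at which a DNA methyltransferase acts. Over the windows of the 8 genes the number of CpG ran from 8 for Nfkbia to 37 for Rel, with a median of 20, against a median of 6 over all windows. Methylation of these windows was not analysed here. The window of Bcl3 is shown for its spread between tumors, with the CpG in capitals.
Bcl3: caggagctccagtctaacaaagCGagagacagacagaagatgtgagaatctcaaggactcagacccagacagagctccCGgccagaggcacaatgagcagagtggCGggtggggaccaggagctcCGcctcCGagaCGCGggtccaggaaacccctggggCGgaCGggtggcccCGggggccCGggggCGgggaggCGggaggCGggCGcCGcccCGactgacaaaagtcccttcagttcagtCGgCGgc

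Tnfaip3 had the lowest mean of the 10 genes. A20, its product, removes and edits ubiquitin chains on signalling proteins upstream of IκB kinase and so dampens NF-κB activation. Tnfaip3 (ENSMUSG00000019850, chr10:19000910-19015657, minus strand) had 4.92, 6.65 and 3.28 FPKM in tumors 1, 2 and 3 and averaged 4.95 ± 1.68 (SD, n = 3). Tumor 2 was the highest and tumor 3 the lowest, with a ratio of 2.03 whose counting interval [1.81 to 2.26] spans 2. Without tumor 2 the ratio was 1.499, without tumor 3 it was 1.35, and with median-of-ratios factors it was 1.88. The window before its RefSeq start (chr10:19015411-19015660, minus strand) held a match 12 to 3 bases before that start, which lies inside the gene.

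The spread between tumors was then compared with that of other genes. The highest tumor had at least 2 times the FPKM of the lowest for 2 of the 10 genes, Bcl3 and Tnfaip3, and for 34.4% of the 11190 genes with a mean of at least 1 FPKM. The median ratio of highest to lowest was 1.36 over the 10 genes and 1.68 over those 11190. The median coefficient of variation was 15.9% against 26.8%. Low levels carry more counting error, and among the 6157 genes with a mean of at least 5 FPKM the share was 27.2%, against 1 of the 9 such genes here. The subunits and the 3 IκB inhibitors all stayed below 2, between 1.17 for Nfkbie and 1.72 for Relb.

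**Figure D3:**
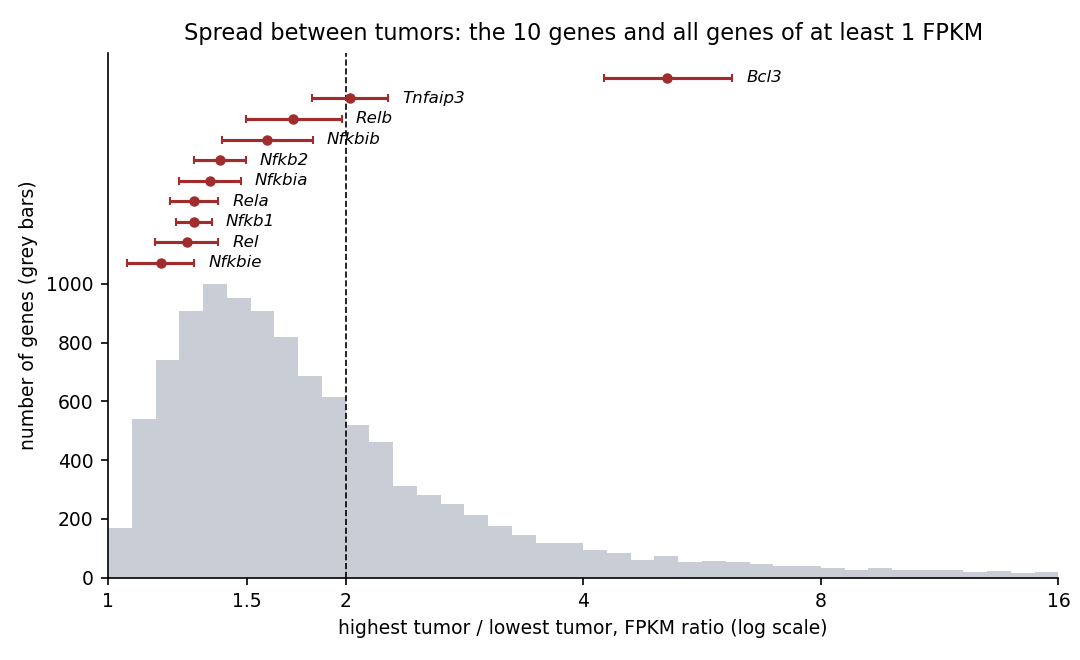
Ratio of the highest to the lowest tumor in FPKM (log scale) for the 10 genes (points, with 95% counting intervals) above the histogram of all genes with a mean of at least 1 FPKM (grey bars, number of genes; ratios above 16 are not drawn). The dashed line marks a ratio of 2; Bcl3 lies beyond it at 5.10, Tnfaip3 on it at 2.03, and the other genes below it.

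Which tumor was highest depended in part on the scaling of the libraries. In the deposited values 4, 6 and 0 of the 10 genes were highest in tumors 1, 2 and 3, beside 50.6%, 33.7% and 15.7% of the 11190 genes. Tumor 3 was the lowest for 6 of the 10 genes, beside 37.4% of all genes. The median-of-ratios factors of tumors 1, 2 and 3 were 0.16, 0.00 and -0.11 on the log2 scale. With these factors 2, 7 and 1 of the 10 genes were highest in tumors 1, 2 and 3, beside 35.6%, 34.4% and 30.01% of all genes, while 6 were still lowest in tumor 3, beside 24.0% of all genes. Under the same factors Nfkb2 and Rel were highest in tumor 2 and not in tumor 1, and Nfkbie in tumor 3 and not in tumor 2. Rescaling each tumor to a common sum gave 5, 5 and 0 genes, with Nfkbia highest in tumor 1, beside 60.5%, 30.7% and 8.75% of all genes. It left 9 genes lowest in tumor 3, beside 50.5% of all genes. Bcl3 was highest in tumor 1 and lowest in tumor 2 under each of these scalings, with ratios of 5.10, 4.56 and 5.59 in the order in which they are given here.

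Cell types other than T-cells differed between the tumors. The 8 macrophage markers summed to 406, 135 and 36.5 FPKM in tumors 1, 2 and 3, and 7 of them were highest in tumor 1, as was Bcl3. Lyz2, the most abundant by its mean, had 215, 33.1 and 20.3 FPKM, while Cd68 was highest in tumor 2 and above Lyz2 there, with 51.2 FPKM. The sum of the macrophage markers was higher in tumor 2 than in tumor 3, and 7 of the 8 were lowest in tumor 3. Only Itgam was lowest in tumor 2, as was Bcl3. Itgam had 0.562 FPKM in tumor 2 and 0.664 FPKM in tumor 3, with counting intervals that overlapped. The 6 neutrophil markers summed to 37.8, 1.44 and 15.7 FPKM, the order of Bcl3, with S100a9 the most abundant. S100a8, S100a9 and Retnlg were highest in tumor 1 and lowest in tumor 2. The others, Ly6g, Mpo and Elane, had at most 1 read in a tumor. Elane had no read in any tumor, where 3 reads, the limit taken for a count of 0, would be 0.0992, 0.161 and 0.147 FPKM. The 6 dendritic cell markers, led by Itgax, summed to 11.1, 6.92 and 4.03 FPKM, with 4 of them highest in tumor 1 and 2 in tumor 2. Cd4 was likewise highest in tumor 1 and lowest in tumor 2. The part of these cells in the level of Bcl3 was not tested.

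Further lists followed other orders. The 7 B-cell markers, led by Cd79a, summed to 63.8, 50.6 and 121 FPKM, with 6 of them lowest in tumor 2 and Cd22 highest there. The 6 markers of stroma and endothelium, led by Pecam1, summed to 16.8, 37.2 and 5.42 FPKM, with 4 of them highest in tumor 2 while Pecam1 and Kdr were highest in tumor 1. The 8 genes of pancreatic acinar cells, led by Ctrb1, summed to 87.0, 440 and 0.657 FPKM. The sums of both of the latter lists were highest in tumor 2 and lowest in tumor 3, which was also the order of Tnfaip3 and Relb, and of Nfkbia except with libraries rescaled to a common sum, where it was highest in tumor 1. Their part in these levels was not tested. The 12 immediate early genes, which respond within minutes to stimulation or handling of tissue, summed to 141, 119 and 148 FPKM, with Btg2 (38.7, 41.0 and 56.8 FPKM), Junb (35.4, 37.1 and 31.0 FPKM) and Zfp36 (17.0, 12.8 and 23.5 FPKM) the most abundant. Single genes of this list differed more than its sum. Of the 12 genes, 4, 4 and 4 were highest in tumors 1, 2 and 3. Jun, with 25.1, 6.51 and 10.8 FPKM, had the order of Bcl3, as did Egr1, Egr2 and, in the deposited values, Ier2. Ier2 had 15.2, 12.6 and 14.8 FPKM, and its counting intervals in tumors 1 and 3 overlapped. Fos had 0.747, 0.762 and 5.02 FPKM. Jun, Egr1, Egr2, Ier2 and Fos were named after their values were seen, and the part of stimulation or handling was not tested.

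**Figure D4:**
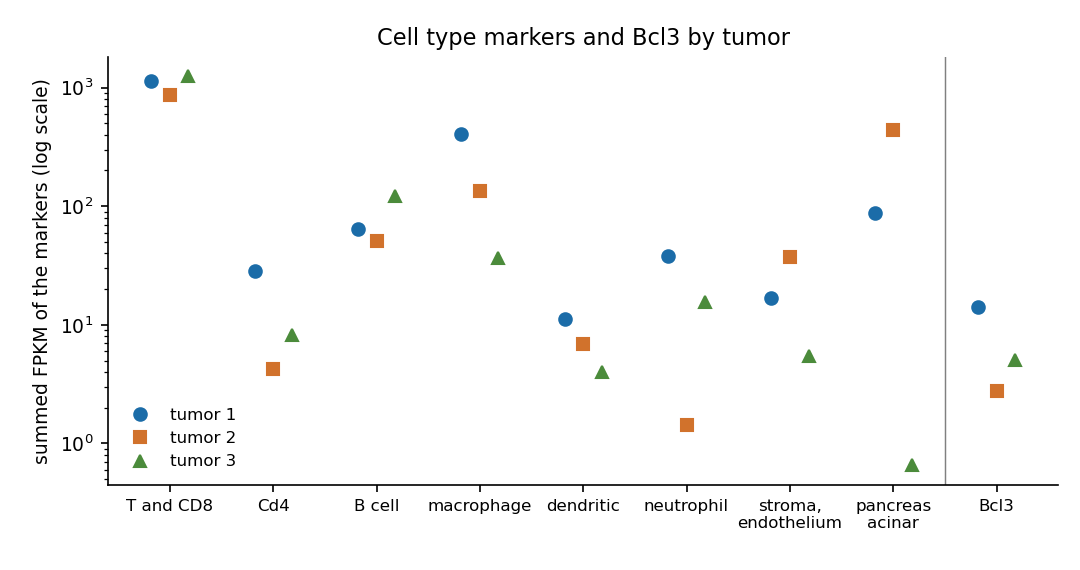
Summed FPKM (log scale) of 8 cell type marker lists in tumors 1, 2 and 3, and at the right the FPKM of Bcl3. The sums of macrophage, dendritic and neutrophil markers, and Cd4, are highest in tumor 1, where Bcl3 is at 14.0 FPKM. The sum of acinar markers is highest in tumor 2.

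The other genes of the pathway were taken from 7 lists by role and counted once each. Of 66 genes, 61 had a mean of at least 1 FPKM, and for 17 of these the highest tumor had at least 2 times the FPKM of the lowest, or 27.9%, near the 34.4% of all genes. The remaining 5 were Btrc, Cxcl1, Cxcl2, Il6 and Ptgs2. Of the 38 that are not in the target list, 5 reached this ratio, with a median ratio of 1.54. The 17 pathway genes were 8 without tumor 1 and 7 without tumor 2. The share of all genes in those settings is not given here.

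Starting at the receptor, the scaffold that links the T-cell receptor to IκB kinase was expressed in every tumor. Prkcq, a kinase at the immune synapse, had 27.0, 23.3 and 26.6 FPKM in tumors 1, 2 and 3. Bcl10, an adaptor of the scaffold, had a ratio of 1.52.

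Of the 9 IκB kinase subunits and upstream kinases with their adaptors, 2 reached a ratio of 2, or 22.2%, beside 34.4% of all genes. Their median ratio was 1.91, beside 1.68 over all genes. Ikbkb, the catalytic subunit of the canonical branch, had 15.3, 7.30 and 7.48 FPKM in tumors 1, 2 and 3. Chuk, the catalytic subunit that also serves the noncanonical branch, had 14.3, 7.15 and 9.02 FPKM. Both were highest in tumor 1 under each scaling and lowest in tumor 2 in the deposited values, with ratios of 2.09 and 1.99. Without tumor 1 these ratios were 1.03 and 1.26. Ikbkb was lowest in tumor 3 with libraries rescaled to a common sum. Map3k7, the kinase that activates IκB kinase, had a ratio of 2.03, and its adaptor Tab2 had the highest mean of the list, 11.9 FPKM. The count for this list moved with the scaling. It was 5 of 9 with a common sum, beside 39.4% of all genes, and 1 of 9 with median-of-ratios factors, beside 32.6%. With the latter Ikbkb had a ratio of 1.87 and Map3k7 of 1.82, and the 1 gene past 2 was Tab1, highest in tumor 2 and named after its values were seen.

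The TRAF, cIAP and LUBAC genes build and read the ubiquitin chains on which IκB kinase is assembled. None of these 11 genes reached a ratio of 2 in the deposited values, beside 34.4% of all genes. Birc3 did with a common sum (2.18) and Sharpin with median-of-ratios factors (2.12), beside 39.4% and 32.6% of all genes. Rbck1 had 32.1, 52.2 and 34.7 FPKM, and Sharpin, another subunit of the same ligase complex, had 12.0, 22.8 and 13.9 FPKM. Both were highest in tumor 2. Birc3, a ubiquitin ligase and NF-κB target, was highest in tumor 1 with a ratio of 1.99.

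Among 11 other negative regulators 2 reached a ratio of 2, or 18.2%, beside 34.4% of all genes. Otulin, which removes linear ubiquitin chains, was the most abundant with 23.4, 38.9 and 28.3 FPKM. Tnip1, which binds A20, had 22.1, 16.0 and 13.9 FPKM, an order unlike that of Tnfaip3. Tax1bp1, another partner of A20, had 13.0, 5.64 and 9.04 FPKM in tumors 1, 2 and 3. Tnip2, a further A20-binding protein named after its values were seen, had 4.90, 7.28 and 4.05 FPKM, the order of Tnfaip3, so that the partners of A20 did not share an order. Pdlim2, a nuclear ubiquitin ligase for RelA, had 6.28, 13.8 and 9.15 FPKM.

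The SCF ligase degrades IκB after its phosphorylation. Skp1a had 63.0, 36.7 and 51.5 FPKM, and Rbx1 had 26.9, 28.5 and 27.8 FPKM. Cul1 had a ratio of 1.66. None of the 4 genes of this list of 5 with a mean of at least 1 FPKM reached 2, beside 34.4% of all genes. Btrc, which recognises phosphorylated IκB, had a mean of 0.320 FPKM. Its paralog Fbxw11, named after its value was seen, had a mean of 7.66 FPKM.

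The other nuclear IκB genes are Nfkbiz and Nfkbid. Nfkbiz had 11.4, 5.26 and 4.11 FPKM in tumors 1, 2 and 3. Its ratio was 2.77 [2.49 to 3.09], and 1.28 without tumor 1. Like Bcl3, Nfkbiz was highest in tumor 1, but tumor 3 and not tumor 2 was the lowest. Nfkbid had 10.2, 11.1 and 7.68 FPKM, with a ratio of 1.44.

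NF-κB target genes had the most genes past a ratio of 2 among the 7 lists. Of 27 targets 23 had a mean of at least 1 FPKM, and 12 of these, or 52.2%, reached it, beside 34.4% of all genes. Their median ratio was 2.16, beside 1.68. Ccl5, a chemokine of cytotoxic T-cells, had the highest mean, with 238, 194 and 729 FPKM in tumors 1, 2 and 3. Ltb, which encodes a ligand of the noncanonical branch, had 93.4, 205 and 155 FPKM. By the deposited values the largest ratios belonged to Vcam1, an adhesion molecule of endothelium and other stroma, with 8.09, 2.38 and 0.174 FPKM, and to Il1b, a cytokine of myeloid cells, with 2.36, 0.0829 and 1.24 FPKM. The Vcam1 ratio of 46.6 rests on 32 reads in tumor 3 and was 13.7 without tumor 1 and 3.40 without tumor 3. The Il1b ratio of 28.4 [9.52 to 139] rests on 3 reads in tumor 2 and was 1.90 without that tumor. It could not be ranked beyond counting error against that of Il2ra, a cytokine receptor chain named after its values were seen. Il2ra had 43.2, 9.98 and 1.96 FPKM and a ratio of 22.1 [19.4 to 25.3]. That ratio was 5.10 without tumor 1 and 4.33 without tumor 3. The targets thus did not share an order between tumors, with Ccl5 highest in tumor 3 and Ltb in tumor 2, and Vcam1 and Il1b in tumor 1 under each of the scalings. Vcam1 followed the order of the summed macrophage markers and of the summed dendritic cell markers. It did not follow that of the summed stroma and endothelium markers, though Pecam1 and Kdr of that list had the order of Vcam1. Il1b followed the order of the summed neutrophil markers and of Cd4. The part of these cells in the levels of Vcam1 and Il1b was not tested.

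**Figure D5:**
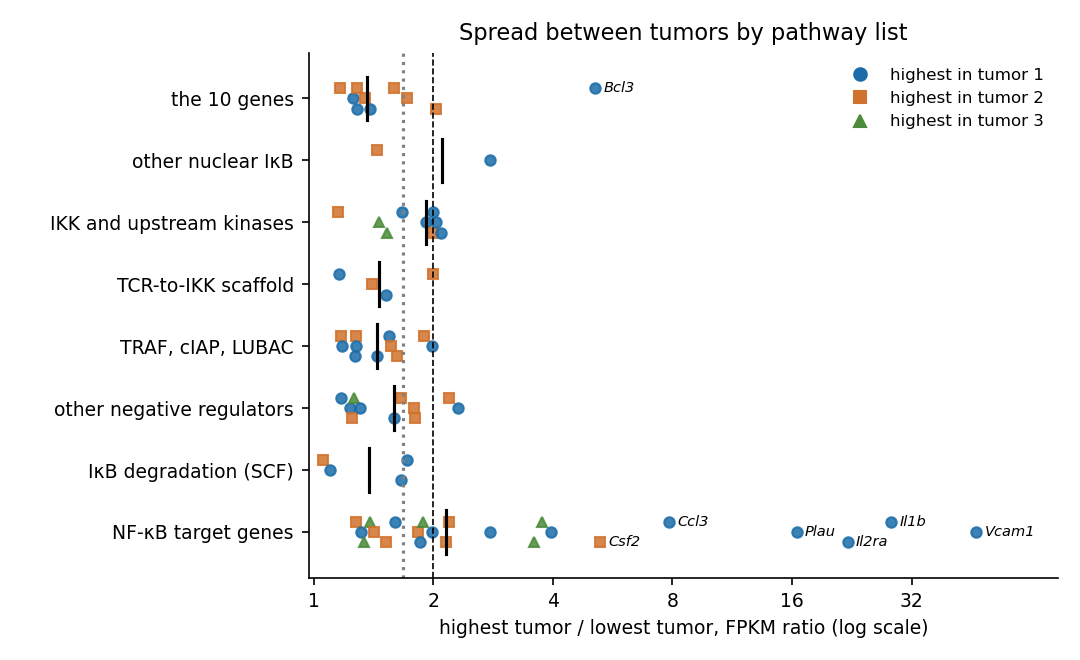
Ratio of the highest to the lowest tumor in FPKM (log scale) for the 10 genes and the pathway lists, genes with a mean of at least 1 FPKM. Symbols show the tumor with the highest deposited value, which for some genes changes with the scaling; black bars are list medians, the dotted line the median of all genes, 1.68, and the dashed line a ratio of 2. Target genes reach 46.6 (Vcam1, 3.40 without tumor 3), and pathway genes outside the target list stay at or below 2.31. Nfkbiz, at 2.77, is drawn with the other nuclear IκB genes and also with the targets, and is counted here as a target.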

How the data were processed

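RNA-seq (paired-end) of 3 Dnmt3b+/- PTCL was analysed. Per the study's methods, trimming was followed by alignment to mm10 with STAR, and SeqMonk quantified the alignments whose mapping quality was 50 or higher. The authors deposited FPKM on a linear scale, in 1 column per tumor. Labels and methods name different Illumina instruments for these libraries. The 3 whole-genome bisulfite samples and the control and Dnmt3a libraries were not analysed here.

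Of 34245 rows with 34197 symbols, the row with the highest mean was used where a symbol was repeated. Each library's depth came from genes that drew no reads, since their FPKM equals that of 0.9 read. Reads followed from depth and GENCODE M21 exon lengths, available for 34125 genes. They were whole numbers (within 0.01) for 92.1%, 92.1% and 92.2% of the values in tumors 1, 2 and 3, and in every tumor for 7 of the 10 genes. For Nfkb2, Rela and Nfkbie the GENCODE lengths did not give whole reads. A single shorter length for each (3289, 2716 and 2422 bases) gives whole reads in every tumor; it was sought after seeing the data and is used for their reads and ratio intervals in the text, while the figures keep the GENCODE lengths. Intervals of a level are Poisson and those of a ratio Clopper-Pearson.

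The genes and lists were chosen with earlier results of these data known. Named were all 10 genes and, per pathway list, the 2 highest means, the 2 largest ratios and genes without a read; per marker list the most abundant gene and those without a read; and the 3 highest immediate early genes. Others are marked as such or illustrate a list (Cd3e, Lck, Cd68, Itgam, S100a8, Retnlg, Ly6g, Mpo, Cd22, Kdr). Birc3, Traf1 and Nfkbiz are in 2 lists. A further gene that this rule names is not reported here. The alternatives were other scalings, thresholds, filters, a pseudocount of 1, repeated symbols summed and each tumor left out. The scalings and left-out tumors for single ratios and for the highest tumor were added after seeing the data. The steps were tested on simulated tables. Python 3.11 was used with SciPy 1.17.1 for intervals, matplotlib 3.10.9 for figures, and NumPy 2.4.6 and pandas 2.3.3.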

Additional observations from a re-analysis of the deposited data

How the results depend on the processing

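With a single group of 3 tumors, the values describe these tumors, and counting intervals do not cover differences between animals. No paired analysis was possible because the groups that share replicate numbers with these tumors are bisulfite samples, which have no expression values to pair. The number of NF-κB genes with a ratio of highest to lowest tumor of at least 2 was 2 as reported. It was 1 with median-of-ratios factors, beside 32.6% of all genes with a mean of at least 1 FPKM. It was 1 with a threshold of 3, 1 with FPKM + 1 and 4 with a threshold of 1.5. With any tumor left out it was 1 (1 to 1), though not always the same gene. Without tumor 1 the gene was Tnfaip3, at 2.03, as Bcl3 had a ratio of 1.84. Without tumor 2 or 3 it was Bcl3, at 2.77 and 5.10. For the other settings in this paragraph the share of all genes is not given here. All 10 genes exceeded 1 FPKM in every tumor with median-of-ratios factors too, and 6 exceeded 5 FPKM in the deposited values. Rescaling to a sum of 1000000 raised every value, so it was no test of this threshold. Neighbours in the order that did not overlap numbered 1 (Rela and Nfkb2) with libraries rescaled to a common sum and 3 to 4 with a tumor left out (4 without tumor 1), where fewer values have to lie apart. The ratio of inhibitors to subunits, 0.925, was 0.904 to 0.939 with a tumor left out and 1.17 with medians in place of sums. The 17 pathway genes were 9 with a threshold of 3 and 7 to 13 with a tumor left out (8 without tumor 1, 7 without tumor 2). The causes were not tested. The other 26 values stayed within 1.5 times for counts or 1 SD for the ratio of inhibitors to subunits. Several of these could not have moved and were no test. Scaling does not enter the ratio of inhibitors to subunits, and leaving out 1 of 3 tumors cannot move it by 1 SD. Fewer tumors or a lower threshold cannot reduce the 10 genes above 1 FPKM. Summing repeated symbols cannot change counts of the 10 genes, whose symbols are not repeated. Of the values for single genes and for the highest tumor, 83 stayed within a limit and 35 did not. The limit was 1 SD for means, the counting interval for ratios of highest to lowest tumor and 1.5 times for counts. Among the 35 were the means of all 10 genes when tumors were rescaled to sum to 1000000, a change of unit. Many of the 83 could not have moved. Leaving out 1 of 3 tumors cannot move a mean by 1 SD, and leaving out the middle tumor cannot change a ratio of highest to lowest. Summing repeated symbols could not change the means either, as none of the 10 symbols is repeated.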
